A study of Mus musculus with 6 samples.

Results

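The immunity-related GTPases (IRGs) were followed in cultured enteric glia (EGCs, the glial cells of the nervous system in the gut) at rest and after exposure to lipopolysaccharide (LPS, a component of the bacterial outer membrane). The 8 genes were taken by symbol from the count tables: Irgm1, Irgm2, Igtp, Iigp1, Tgtp1, Tgtp2, Ifi47 and Gm4951, which are 8 of the 46603 gene identifiers counted. Poly(A) RNA was sequenced from 6 samples of EGCs grown from neurospheres, which are floating clusters of neural progenitors. All 6 came from whole intestine of C57BL/6J embryos (E14.5). There were 3 untreated control samples and 3 samples given LPS at 100 ng/ml for 12 h. The labels number the samples in each group from 1 to 3 and do not say whether they came from separate embryos or cultures, so the p-values below measure the spread between these samples, which may be technical.

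IRG proteins are interferon-inducible GTPases of cell-autonomous immunity, the defence that a single infected cell mounts by itself. In mice, effector IRG proteins collect on the membrane of vacuoles that hold intracellular parasites or bacteria and help to break that membrane. Regulatory IRG proteins sit on the cell's own membranes and keep the effectors inactive there. Transcription of the family is known to be driven by interferon through 2 kinds of promoter element, the gamma-activated site (GAS) and the interferon-stimulated response element (ISRE).

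Most IRG genes lie in 2 groups on chromosome 11 and a further group on chromosome 18 (GRCm38 coordinates, GENCODE M21), and all 8 are annotated as protein-coding. In the first group on chromosome 11 are Irgm1 (48861968 to 48871683, minus strand), Tgtp1 (48985327 to 48994172, minus strand), Tgtp2 (49057194 to 49064206, minus strand) and Ifi47 (49076587 to 49096974, plus strand). In the second are Igtp (58199556 to 58207591, plus strand) and Irgm2 (58199618 to 58222782, plus strand). On chromosome 18 are Gm4951 (60212080 to 60247820, plus strand) and Iigp1 (60376027 to 60392634, plus strand).

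Promoter sequence was examined first, since it was not used to choose the genes. The RefSeq promoter table for GRCm38.p6 held 6 of the 8, those on chromosome 11, as windows from 250 bases before to 50 bases after the start. Both strands were searched for a GAS (letters TTCNNNGAA) and an ISRE (GAAA, any 2 bases, GAAA), and the 2 patterns were allowed to overlap. An ISRE was found in 5 of the 6 windows and a GAS in 4, against 3.44% and 8.3% of all 32851 promoter windows. In Igtp, Irgm2, Tgtp1 and Tgtp2 the GAS and the ISRE stood side by side on the plus sense of the gene, 2 bases apart. In Irgm1, 2 ISRE matches overlapped, from position -30 to -21 and from -24 to -15. The Ifi47 window held neither set of letters, and the NF-κB consensus, which 8.46% of all windows hold, was found in 0 of the 6, which is near that share. A match describes letters only, not a site in use.

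The stretches with the matches are shown from 5′ to 3′ on the strand of each gene, upstream of the RefSeq start, with GAS and ISRE letters in capitals, because they let the 4 with both motifs be compared with Irgm1, which held the ISRE alone. Positions are Irgm1 chr11:48871421-48871480, Tgtp1 chr11:48992284-48992364, Tgtp2 chr11:49064243-49064323, Igtp chr11:58199481-58199555 and Irgm2 chr11:58214872-58214952. Irgm1, Tgtp1 and Tgtp2 are on the minus strand and Igtp and Irgm2 on the plus strand. In GENCODE, the Irgm1 stretch lies within the first exon of a longer transcript, and the Tgtp1 and Irgm2 stretches lie in introns of longer transcripts of those genes, so these 3 are not upstream of the annotated gene start.
Irgm1: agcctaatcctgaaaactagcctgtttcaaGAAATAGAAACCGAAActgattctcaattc
Tgtp1: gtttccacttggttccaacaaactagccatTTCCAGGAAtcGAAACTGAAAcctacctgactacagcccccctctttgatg
Tgtp2: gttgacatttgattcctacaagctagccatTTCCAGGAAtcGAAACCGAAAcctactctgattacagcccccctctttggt
Igtp: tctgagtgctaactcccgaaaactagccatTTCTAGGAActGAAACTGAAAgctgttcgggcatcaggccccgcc
Irgm2: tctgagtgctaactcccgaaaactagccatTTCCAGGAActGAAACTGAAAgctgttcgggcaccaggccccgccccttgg

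Aligned at the motifs without gaps, Igtp and Irgm2 were identical at 73 of 75 bases (97.3%) and Tgtp1 and Tgtp2 at 57 of 81 (70.4%). Between these pairs the identity was 56.8% to 64.0%. The joined pattern of a GAS, any 2 bases and an ISRE was defined after these promoters had been seen. Over all 32851 windows it occurred in 5 (0.0152%): those of the 4 genes above and that of Gm12185, another IRG gene, whose stretch (chr11:48927218-48927298, minus strand) was 91.4% identical to that of Tgtp2. These promoters are related in sequence, so they are not independent occurrences. In GENCODE, the stretch of Gm12185 lies within the span of that gene (48904656 to 48992226), so it is not upstream of the annotated gene start. It is shown for comparison.
Gm12185: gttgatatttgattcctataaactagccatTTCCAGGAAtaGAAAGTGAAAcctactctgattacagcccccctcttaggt

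Library totals ranged from 18775316 to 23664312 counts. Values below are CPM, counts scaled to a common library size after correction for composition. The floor of detection was set at 3 counts in a library, equal to 0.124 to 0.167 CPM. The glial markers Sox10, S100b, Gfap, Erbb3 and Foxd3 were detected in every library. S100b was called lower, from 24.7, 20.5 and 21.4 CPM in control libraries to 4.94, 3.46 and 9.37 CPM with LPS (log2 fold change -1.91, edgeR adjusted p = 0.0238). Macrophage markers were present as well. At 3 counts or more, 12 of 12 were detected in every library, although Cx3cr1 had only 4 and 3 in LPS replicates 1 and 2. Their summed level was 4120, 5345 and 12705 CPM in controls 1, 2 and 3 and 4153, 5397 and 20410 CPM in the corresponding LPS libraries, so both libraries numbered 3 stood above the others. Lyz2 made up much of this sum (2888 of 4120 CPM in control replicate 1), and single markers moved apart with LPS. Adgre1 was called higher, from 159, 229 and 472 CPM to 952, 1261 and 3700 CPM (6.87-fold, edgeR adjusted p = 0.0452), while Mrc1, at 197, 331 and 752 CPM in control libraries and 9.29, 10.4 and 131 CPM with LPS, was not called (adjusted p = 0.145), although the fit with the replicate block called it lower (0.0124). Of 5 smooth muscle markers, all 5 were called lower with LPS, against 6.71% of all genes tested. Their summed level was 2119 to 2369 CPM in control libraries and 592 to 849 CPM with LPS. The summed level of 5 mesenchymal markers was 10477 to 12099 CPM in control libraries and 11218 to 11680 CPM with LPS, above the glial markers in every library, and Dcn (1.86-fold) and Pdgfra (1.41-fold) were called higher (edgeR adjusted p = 0.0118 and 0.0114). Col1a1, Col1a2 and Lum were not called, although Lum was lower in every LPS library (adjusted p = 0.0775, and 0.00581 with the replicate block). The part of any of these cell types in the results below was not tested. These are bulk libraries, in which fewer cells of a type and less RNA per cell cannot be told apart.

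All 8 IRG genes rose with LPS. By the edgeR quasi-likelihood test with adjustment over 15226 genes, 8 of 8 were called higher at an adjusted p under 0.05, while 9.09% of all genes tested were called higher, 6.71% lower and 15.8% in either direction. Every LPS library lay above every control library for all 8, a pattern seen in 19.3% of the genes tested. Their median log2 fold change was 3.83, against a median of -0.02 over all genes tested. The summed level of the 8 was 146.9, 168.8 and 96.3 CPM in controls 1, 2 and 3 and 1307, 1423 and 1299 CPM in the corresponding LPS libraries. In proportion to its level, this sum was thus close in the 3 LPS libraries, and it differed more among the controls. Irgm1 had the highest CPM of the 8 in both groups, so the sum does not describe each gene.

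Of the regulatory genes, Irgm1 and Irgm2 had the highest CPM of the 8 at rest, and Igtp lay below the effector Iigp1 and was not separated from Ifi47 on that scale. Irgm1, whose product acts on lysosomal and other host membranes, was at 85.6, 102.2 and 56.5 CPM in control replicates 1, 2 and 3 and at 574, 604 and 535 CPM in the LPS replicates. This was a 7.01-fold rise (log2 fold change 2.81, SE 0.23, edgeR adjusted p = 0.00185). Irgm2, a regulator of the Golgi membrane, went from 27.7, 33.0 and 17.2 CPM to 186, 196 and 199.8 CPM, a 7.48-fold rise (log2 fold change 2.90, SE 0.25, edgeR adjusted p = 0.00204). For both genes the lowest control library was replicate 3, and the groups were far from overlapping. Igtp, which encodes Irgm3, a regulator found on the endoplasmic reticulum and lipid droplets, was at 7.58, 7.61 and 6.03 CPM in control libraries and 96.6, 102 and 133 CPM with LPS. It rose 15.6-fold (log2 fold change 3.97, SE 0.18, edgeR adjusted p = 0.00026). With LPS replicate 3 the highest, Igtp rose by more than Irgm1 and Irgm2 within each replicate number.

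Among the effectors, Iigp1 and Ifi47 carried most of the counts. Iigp1 encodes Irga6, an effector that oligomerises on parasite vacuoles. It was at 12.8, 12.7 and 9.13 CPM in control libraries and 245, 278 and 204 CPM with LPS, a 21-fold rise (log2 fold change 4.39, SE 0.20, edgeR adjusted p = 0.00026). Both libraries numbered 3 were the lowest of their group for this gene. Ifi47, which encodes the effector Irgd, went from 8.39, 8.85 and 5.83 CPM to 82.7, 95.7 and 103.5 CPM. The rise was 12.2-fold (log2 fold change 3.61, SE 0.20, edgeR adjusted p = 0.000394), with all 3 LPS libraries more than any control. In the annotation, Ifi47 shares 4.49% of its exon bases with Olfr56 on the same strand, and 2.54% of its sequence words (runs of 50 bases) occur in that gene.

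Tgtp1 and Tgtp2 encode the effector Irgb6 from near-identical copies, so their counts cannot be kept apart with certainty. Of the sequence words, 81.2% of those in Tgtp1 and 86.6% of those in Tgtp2 occur in another gene, chiefly in each other. How reads with several alignments were counted is not given in the sources used here. Tgtp1 was at 3.52, 3.36 and 0.785 CPM in control libraries and 38.1, 41.2 and 19.6 CPM with LPS (log2 fold change 3.69, SE 0.61, edgeR adjusted p = 0.0156). Both libraries numbered 3 were clearly below the others of their group. This was the least firm call of the 8: it was lost when control replicate 1 (adjusted p = 0.0601) or 2 (0.0743) was left out, and likewise for LPS replicate 1 (0.0563) or 2 (0.0636). In those fits the log2 fold change stayed between 3.50 and 4.0.

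Tgtp2 was almost silent at rest, with 6, 3 and 3 counts in the control libraries, while the LPS libraries held 849, 1069 and 848. The pooled counts, 12 against 2766, gave a 283-fold ratio with a 95% interval of 162 to 549 (exact binomial, counting error only). The fitted log2 fold change was 8.11 (SE 0.30, edgeR adjusted p = 0.000148), a value that depends on the prior count because the controls lie near the floor. Tgtp2 made up 6.74%, 3.80% and 13.6% of the counts of both copies in control replicates 1, 2 and 3. In the LPS replicates it made up 52.4%, 59.1% and 69.4%, above every control. With both copies summed into 1 feature, the level went from 3.77, 3.50 and 0.909 CPM to 80.1, 100.8 and 64.0 CPM (log2 fold change 4.90, edgeR adjusted p = 0.00455).

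Gm4951, listed in RefSeq as a gene of the same family as Iigp1 under the synonym Ifgga2, was at 1.10, 0.93 and 0.827 CPM in control libraries and 42.8, 45.5 and 60.2 CPM with LPS. It rose 51.7-fold (log2 fold change 5.69, SE 0.21, edgeR adjusted p = 0.000148). The controls were within a narrow range, and LPS replicate 3 was the highest library.

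**Figure D1:**
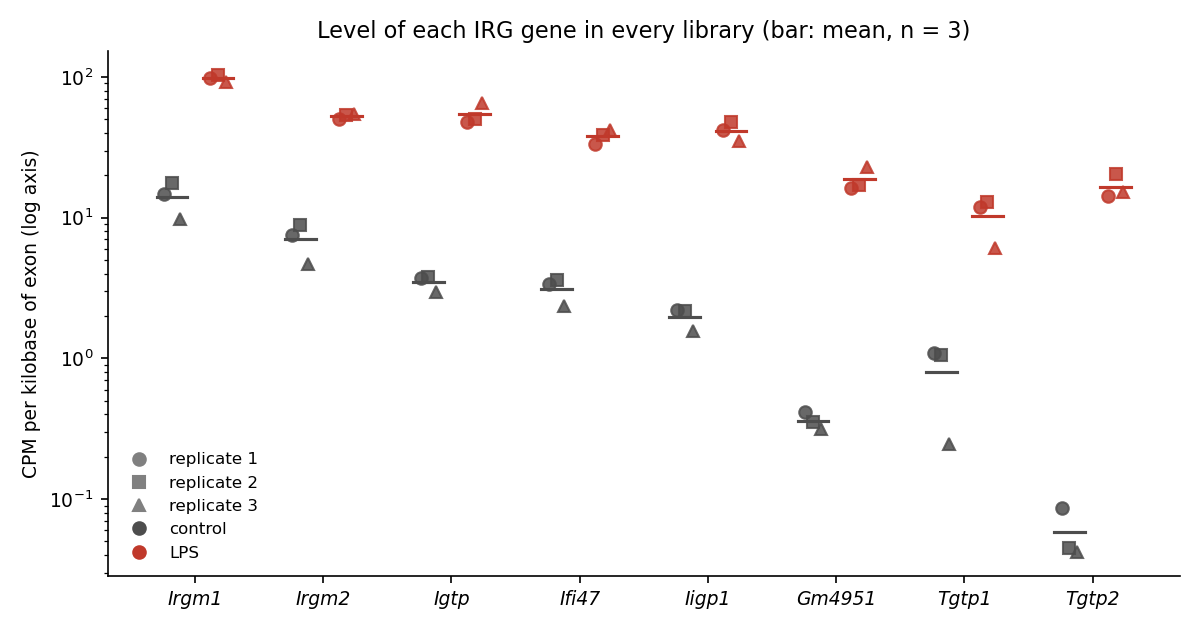
Level of the 8 IRG genes in CPM per kilobase of exon (log axis) in each of the 6 libraries; symbols give the replicate number, colours the group and bars the mean of 3 libraries. LPS libraries (red) lie above all controls (grey) for each gene, and control replicate 3 (triangle) is the lowest control in each.

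Levels of different genes were compared after division by exon length. At rest, Irgm1 led with 14.0 ± 3.99 CPM per kilobase (SD, n = 3), followed by Irgm2 at 7.03 ± 2.18, Igtp at 3.50 ± 0.45, Ifi47 at 3.11 ± 0.66 and Iigp1 at 1.98 ± 0.35 CPM per kilobase. Tgtp1 was at 0.797 ± 0.479, Gm4951 at 0.360 ± 0.053 and Tgtp2 at 0.0580 ± 0.0248 CPM per kilobase. In this order the neighbours Igtp and Ifi47, and Tgtp1 and Gm4951, had overlapping ranges over the 3 libraries and were not separated.

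Under LPS the order was Irgm1 (98.3 ± 5.95 CPM per kilobase, SD, n = 3), Igtp (54.7 ± 9.68), Irgm2 (52.6 ± 1.95), Iigp1 (41.6 ± 6.41) and Ifi47 (38.0 ± 4.25). Gm4951 at 18.7 ± 3.54, Tgtp2 at 16.6 ± 3.25 and Tgtp1 at 10.3 ± 3.65 CPM per kilobase followed. Igtp and Irgm2, Iigp1 and Ifi47, and Gm4951 and Tgtp2 overlapped and were not separated. With both Tgtp copies kept apart, Tgtp2, the lowest at rest, and Gm4951 had the largest fold changes of the 8. With the copies summed, their log2 fold change was 4.90, below that of Gm4951 (5.69). Igtp and Irgm2 share 8.01% and 4.39% of their exon bases with each other on the same strand, so reads there could be assigned to either gene or to neither.

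The make-up of the family differed between groups. Irgm1 made up 44.4%, 46.9% and 44.4% of the summed CPM per kilobase of the 8 genes in controls 1, 2 and 3, and 31.4%, 30.2% and 27.7% in the corresponding LPS libraries. The regulatory genes Irgm1, Irgm2 and Igtp together went from 78.3%, 80.8% and 79.3% to 62.6%, 60.3% and 63.7%. The effector genes Iigp1, Ifi47, Tgtp1 and Tgtp2 together went from 20.4%, 18.3% and 19.3% to 32.3%, 34.7% and 29.5%. Igtp departed from the other regulatory genes, with 11.3%, 10.0% and 13.6% in control and 15.2%, 14.7% and 19.8% in LPS. These shares are a description without a test.

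**Figure D2:**
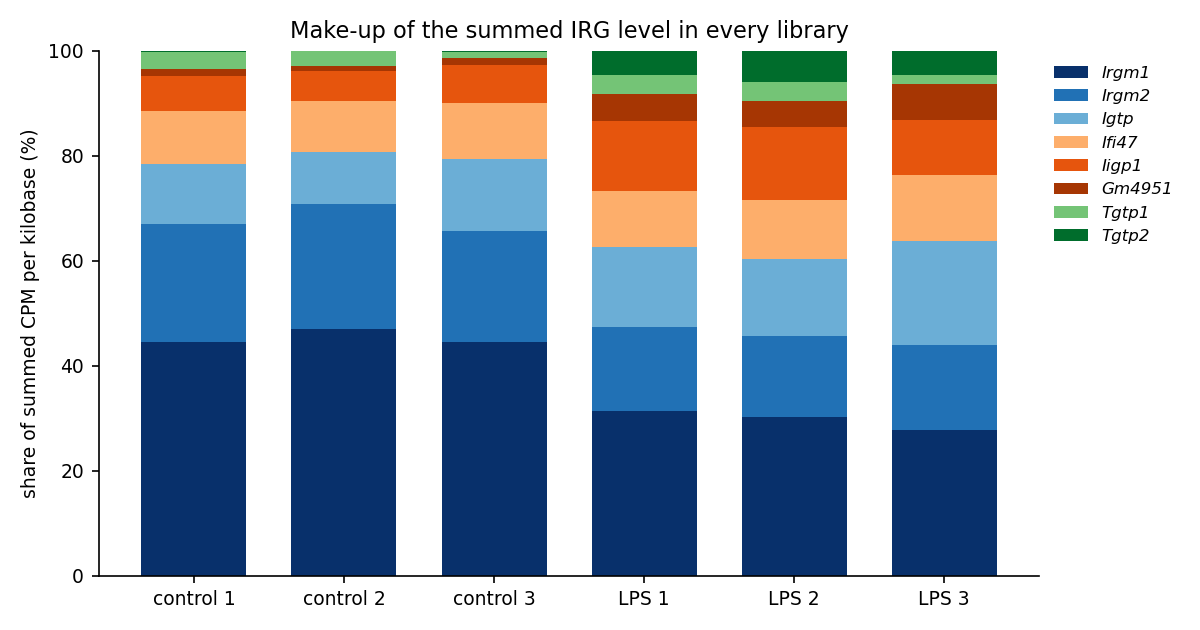
Share of each IRG gene in the summed CPM per kilobase of the 8 genes (%, stacked to 100) in each of the 6 libraries. The blue regulatory genes Irgm1, Irgm2 and Igtp take 78.3% to 80.8% in control and 60.3% to 63.7% in LPS.

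The change was then examined within each replicate number, as the log2 ratio of LPS over control CPM (prior count 2). Irgm1 gave 2.74, 2.56 and 3.24 for numbers 1, 2 and 3, Irgm2 2.74, 2.57 and 3.53, and Igtp 3.65, 3.73 and 4.44. Number 3 gave the largest ratio for these regulatory genes. Ifi47 gave 3.29, 3.42 and 4.13, Tgtp1 3.40, 3.58 and 4.48 and Gm4951 5.16, 5.48 and 6.03, again with number 3 the largest. Iigp1 was the steadiest, at 4.25, 4.45 and 4.46, and Tgtp2 was at 6.92, 8.04 and 7.67. For each of the 8 genes control replicate 3 was the lowest control library, and it was also the control with the highest summed macrophage markers; the part of these cells in the result was not tested. Without both libraries numbered 3, a fit chosen after these values were seen, all 8 were called higher with log2 fold changes from 2.67 to 8.0 and edgeR adjusted p-values up to 9.17e-06.

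**Figure D3:**
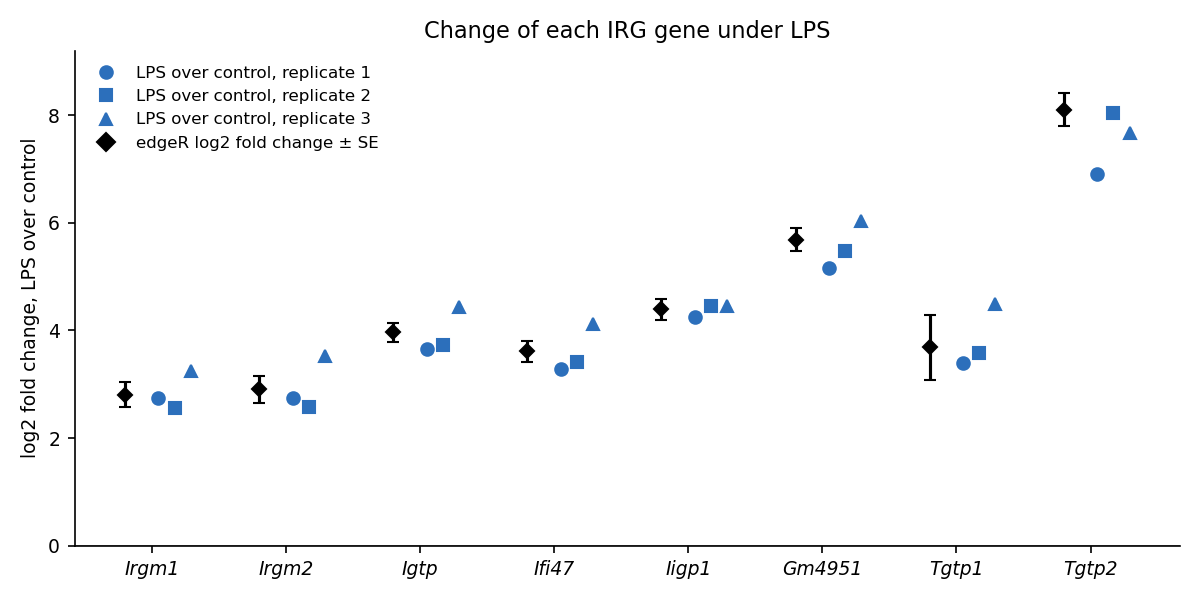
Change of each IRG gene under LPS on the log2 scale. Black diamonds give the edgeR log2 fold change with its SE, and blue symbols the log2 ratio of LPS over control within replicate numbers 1, 2 and 3; values run from 2.56 for Irgm1 in number 2 to 8.04 for Tgtp2 in number 2.

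The other IRG genes were examined from a list of 12 symbols. Of these, 11 had a row in the tables and 9 passed the count filter, with 7 called higher, against 9.09% of all genes tested, and 2 not called. The 7 became 5 without control replicate 1 or 2, or LPS replicate 1 or 2. One of the 7, Gm4070, carries the RefSeq synonym VLIG-1 and so belongs to the very large inducible GTPases. It shares 97.8% of its sequence words with other genes, chiefly Gvin1, and its log2 fold change was 3.74. Irgc1 had no count in any library, and Gm12187, annotated as a pseudogene, had at most 2 counts in a library.

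On chromosome 18, F830016B08Rik, Ifgga4 in RefSeq, had 8, 3 and 6 counts in the control libraries and 311, 346 and 314 with LPS. The ratio of pooled counts was 70.2 (95% interval 43.6 to 121, exact binomial; edgeR adjusted p = 0.000323). Its neighbour Gm4841, Ifgga3 in RefSeq, had 0, 4 and 1 counts in control and 100, 103 and 65 in LPS, a ratio of 65.9 (27.9 to 204; edgeR adjusted p = 0.00639). Both were near the floor at rest, as Tgtp2 was.

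On chromosome 11, Gm12250 is the gene of the effector Irgb10 in RefSeq, while GENCODE M21 annotates it as a processed pseudogene of a single exon. It had 10, 6 and 12 counts in control and 259, 280 and 817 in LPS (log2 fold change 5.88, SE 0.65, edgeR adjusted p = 0.00448), with LPS replicate 3 far above the other LPS libraries. Gm12185 was at 0.805, 0.885 and 0.785 CPM in control libraries and 3.51, 4.35 and 2.62 CPM with LPS, a 4.21-fold rise (edgeR adjusted p = 0.00699). Its exons overlap those of Tgtp1 by 3.99% on the same strand.

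Some IRG genes rose little or were not called. 9930111J21Rik1 and 9930111J21Rik2 were called close to the threshold, with log2 fold changes of 0.65 and 0.59 (edgeR adjusted p = 0.0246 and 0.0428), and 82.9% and 59.2% of their sequence words occur in another gene, mostly in each other. Irgq was at a mean of 70.0 CPM (SD 2.17) in control and 84.4 CPM (SD 14.9) in LPS (log2 fold change 0.27, edgeR adjusted p = 0.241), and the groups overlapped. Gm5431, Irgb9b8 in RefSeq, was at 2.12, 3.67 and 6.45 CPM in control libraries and 5.44, 6.52 and 61.4 CPM with LPS. It was not called (log2 fold change 2.58, SE 1.08, edgeR adjusted p = 0.164), and a single library, LPS replicate 3, stood high. That library also had the highest summed macrophage markers of all 6, and their part in the values of Gm5431 and Gm12250 was not tested.

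**Figure D4:**
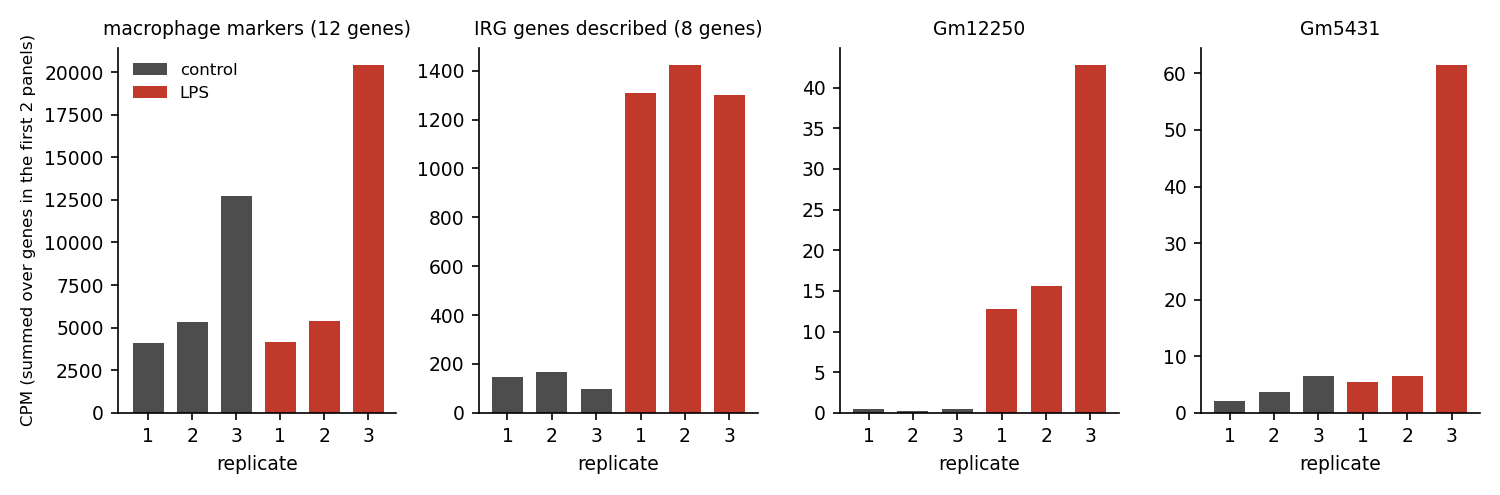
CPM in each of the 6 libraries (controls grey, LPS red, by replicate number) of 12 macrophage markers summed, the 8 IRG genes summed, Gm12250 and Gm5431. The summed IRG genes are at 1299 to 1423 CPM in all 3 LPS libraries. The macrophage markers, Gm12250 and Gm5431 are highest in LPS replicate 3. Within the IRG sum, Irgm2, Igtp, Ifi47 and Gm4951 are also highest in LPS replicate 3. Irgm1, Iigp1, Tgtp1 and Tgtp2 are highest in LPS replicate 2.

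The position of the IRG genes within their groups was compared with the genes around them, counting genes that passed the filter within 250000 bases of the outermost of the 8. Around Igtp and Irgm2, all 3 IRG genes were called higher, while the 7 other genes had log2 fold changes from -0.16 to 0.25 and edgeR adjusted p-values from 0.196 to 0.861, with no unadjusted p under 0.05. In the first group on chromosome 11, 7 of 8 IRG genes and 3 of 9 other genes were called higher, where 9.09% of all genes tested were. The 3, named after their values were seen, were Olfr56, which overlaps Ifi47 (log2 fold change 4.79), Psme2b (0.99) and Mgat1 (0.27). On chromosome 18, all 4 IRG genes were called higher and 3 of 6 others: Gm5970 (5.56), BC023105 (4.87) and Smim3 (0.80). Gm5970 lies within the span of Gm4951 and shares sequence words with Iigp1, and BC023105 shares them with Gm4841, so these 2 are not clearly separate from the IRG genes.

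Signals upstream of the family were examined from a list of 20 interferon genes. Of the 18 that passed the filter, 13 were called higher, against 9.09% of all genes, and 5 were not called. With the replicate block 15 were called, Ifnar1 and Tyk2 among them (adjusted p = 0.00598 and 0.00617). Ifng, which encodes interferon gamma, had no count in any library, which allows at most 3 counts per library (0.167 CPM). Ifnb1, which encodes interferon beta, had no count in 5 libraries and 17 counts in LPS replicate 3. The 8 markers of T and NK cells, which make interferon gamma, were too low to be tested, with a summed level of 0.254 to 0.372 CPM in control and 0.279 to 1.31 CPM in LPS, and Cd3e, Cd3g, Ncr1 and Gzma were at 0 in every library.

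Among receptors, Ifngr2 rose from 104 CPM (SD 12.2, n = 3) to 195 CPM (SD 8.30, n = 3), a log2 fold change of 0.91 (edgeR adjusted p = 0.00505), and Ifngr1 was at 72.9 ± 14.2 and 81.5 ± 4.31 CPM and was not called (adjusted p = 0.504). Among transcription factors, Irf9 rose from a mean of 28.5 CPM (SD 2.17) to 119 CPM (SD 0.70; log2 fold change 2.07, edgeR adjusted p = 0.000157). Irf1, an activator of many interferon gamma targets, rose from 21.7 ± 3.94 to 86.3 ± 7.80 CPM (log2 fold change 1.99, edgeR adjusted p = 0.00144). Irf8, a factor of myeloid cells, had the lowest value of the list (log2 fold change -0.21, edgeR adjusted p = 0.867), with 22.5, 29.4 and 69.9 CPM in control libraries and 16.2, 20.1 and 68.7 CPM with LPS. The highest was Irf7, at a log2 fold change of 7.13. Irf7 was highest in LPS replicate 3, as the macrophage markers were, and Irf9 was nearly equal in the 3 LPS libraries.

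Genes that act with IRG proteins at the vacuole were counted in 3 further lists. Of 10 guanylate-binding proteins tested, a related family of interferon-inducible GTPases, 9 were called higher, against 9.09% of all genes tested, from a log2 fold change of 3.77 to 7.93 (Gbp5), and Gbp8 was not called (1.06, edgeR adjusted p = 0.0791). Some had few counts at rest, such as Gbp10 with 1 in each control library, and 5 were called when 10 counts were required in all 6 libraries. When the replicate number was added as a block, Gbp8 was called as well (adjusted p = 0.033). The 11 genes of autophagy conjugation, the lipidation machinery needed to target IRG proteins, gave no call: their log2 fold changes ran from -0.31 (Gabarapl2) to 0.27 (Atg16l1), with edgeR adjusted p-values from 0.136 to 0.987 and 3 unadjusted p-values under 0.05. DESeq2, the edgeR exact test and limma-voom also gave no call. With the replicate block, Atg16l1 was called higher (adjusted p = 0.0421) and Gabarapl1 and Gabarapl2 lower (0.0459 and 0.0333).

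Of 6 genes for vacuole ubiquitin and its adaptors, 1 was called higher, where 9.09% of all genes tested were. This was Trim21, a ubiquitin ligase, which rose from 10.8 CPM (SD 1.26) to 63.5 CPM (SD 13.6; log2 fold change 2.55, edgeR adjusted p = 0.00122). The other 5 were not called, with values from -0.10 to 0.74. The highest of these was Sqstm1, the gene of the adaptor p62, at 598 ± 17.5 and 998 ± 292 CPM (SD, n = 3 each; edgeR adjusted p = 0.0846, and 0.0456 with the replicate block).

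**Figure D5:**
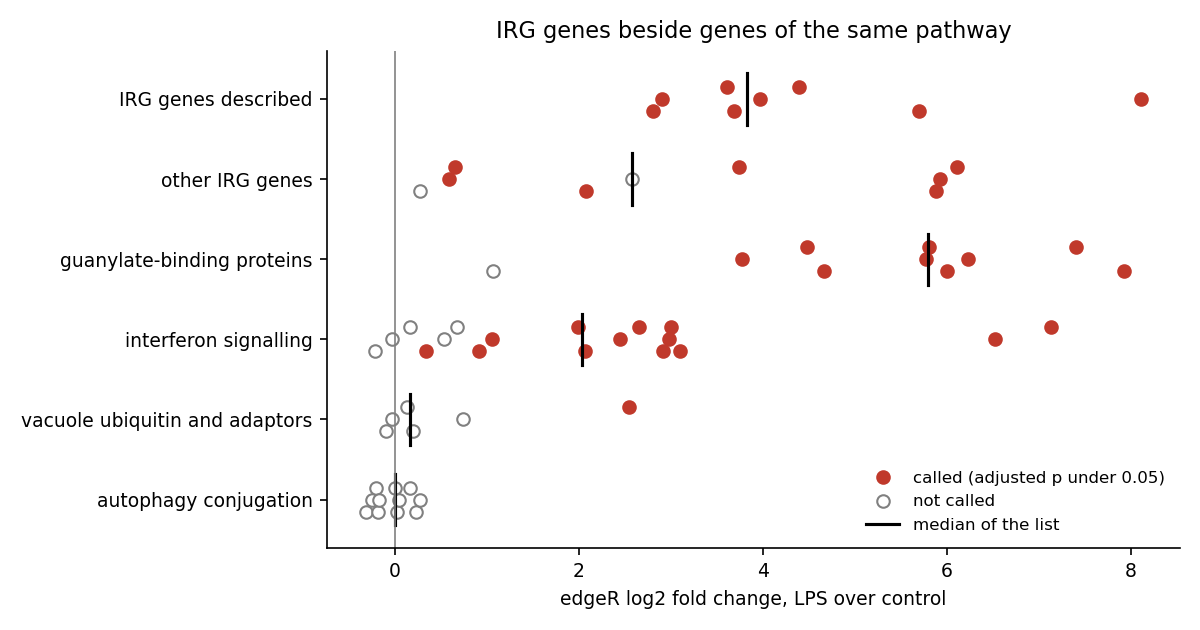
The edgeR log2 fold change (LPS over control) of each gene that passed the count filter, for the 8 IRG genes and 5 lists of related genes; filled red points were called at an adjusted p under 0.05, open points were not, and black lines are list medians. The 8 IRG genes lie from 2.81 to 8.11 and the autophagy conjugation genes from -0.31 to 0.27.

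Finally, the genes whose profile over the 6 libraries was most like the mean profile of the 8 were sought among all genes tested. The measure was the root mean square difference of centred log2 CPM (prior count 2). The 5 nearest were Slc6a12 (0.19), Pax5 (0.20), Ccl11 (0.23), BC023105 (0.25) and Adgre4 (0.28). Among the 8 themselves, the distance to their own mean ran from 0.13 for Iigp1 to 1.62 for Tgtp2. Slc6a12, a betaine and GABA transporter, went from 1.36, 1.15 and 0.909 CPM to 23.0, 28.9 and 31.6 CPM, and Ccl11, an eosinophil chemokine, from 3.98, 4.91 and 2.44 to 80.9, 97.3 and 56.3 CPM. Pax5 and Adgre4 were at the floor in all controls, where the prior count sets the profile.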

How the data were processed

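Each library's table, as the authors deposited it, lists an integer count for every gene, with no scaling. Per the labels, the libraries were made with a stranded poly(A) kit, and the submitters' processing notes name cutadapt 1.15, Bowtie2 2.3.3.1, STAR 2.5.2b, SAMtools 1.5 and featureCounts 1.5.3 with GRCm38. The order of these steps, the strand setting and the handling of multiply aligned reads are not given in the sources used here. Identifiers were matched to GENCODE M21 (98.7% found). The 8 genes and the lists were chosen with earlier results of these data known.

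Genes were filtered with filterByExpr (minimum count 10, minimum total 15) and scaled with TMM factors (0.917 to 1.08). Groups were compared with the edgeR 4.0.16 quasi-likelihood F-test (R 4.3.3), two-sided, with Benjamini-Hochberg adjustment, and the test was checked on simulated counts. The SE is the absolute log2 fold change divided by the square root of F. Intervals and floors cover counting error only. Sequence words are runs of 50 bases of annotated transcripts. The named genes were the 8, the detected genes of the other-IRG list, fixed interferon genes, the extremes of the other lists and the 5 nearest profiles. Deviations from group means correlated across genes between libraries of the same number (r = 0.513, 0.334 and 0.613). The main fit used the group alone, without pairing. Only the replicate block and the ratios within each number took the numbers as pairs, from the data and not the labels. Control 1 with LPS 2 (0.419) and control 2 with LPS 1 (0.323) were in the same range, so the values set number 3 apart but do not tell 1 from 2. Alternatives were other scalings and filters, DESeq2 1.42.0, the edgeR exact test, limma-voom (limma 3.58.1), the replicate number as a block, each library left out, both Tgtp copies summed, and, chosen after seeing the data, both libraries numbered 3 left out. No protein sequences were used here. Some genes of the lists are not reported here.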

Additional observations from a re-analysis of the deposited data

How the results depend on the processing

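Of the 8 IRG genes, 7 kept their direction and call in all settings in which they were tested, and Tgtp1 kept its direction. Their adjusted p-values reached 0.018 at most (Irgm2), apart from Tgtp1, which lost its call in 4 of the 6 fits without a library (log2 fold changes 3.27 to 4.0 over the 6, adjusted p up to 0.0743) and reached 4.51e-09 at the lowest. The median of the 8 ran from 3.64 to 4.02. Requiring 10 counts or more in all 6 libraries removed Tgtp2, whose controls hold at most 6 counts, so depth limits its resting level. With the replicate block all 8 were called, with a median of 3.87, and the block changed no call among the 8.

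Counts over all genes moved more. Higher and lower calls were 1384 and 1022, and became 2079 and 1673 with DESeq2 and 2343 and 2273 with the replicate block. Scaling by upper quartiles gave 1050 higher and 1589 lower calls, and library size alone 986 and 2054, so that lower calls outnumbered higher ones; these scalings moved the median of all genes to -0.12 and -0.18. Over the fits without a library, higher calls ran from 379 (without control replicate 2) to 1964 and lower calls from 112 to 1426, and both libraries numbered 3 left out gave 3498 and 3159. The cause was not tested.

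With that same requirement, 4 other IRG genes and 5 guanylate-binding proteins were called, since fewer were tested. The 7 calls among other IRG genes were also 6 when scaled by upper quartiles or without a filter, 5 by library size alone, 5 to 7 in the fits without a library and 9 without both libraries numbered 3. In the fits without a library, autophagy calls ran from 0 to 1 higher and were 0 lower, and interferon genes called lower were 0. Autophagy genes called higher were 1 with the replicate block, 1 without control replicate 3 and 3 without both libraries numbered 3, and lower 1 with library size alone, 2 with the replicate block and 3 without both. Vacuole genes called higher were 3 with DESeq2, 2 with the exact test, 2 with the replicate block, 2 without LPS replicate 3 and 3 without both, over a range of 1 to 3. Interferon genes called lower were 1 without both. Without division by exon length, Igtp moved to position 5 at rest and 4 under LPS, and Iigp1 to 3 and 2.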
